A study of Drosophila melanogaster with 48 samples.

Results

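The genes spz6, Lst and js were followed through all 12 groups of a microarray study of Drosophila melanogaster wings that were made to express the Hox gene Ultrabithorax (Ubx). These 3 genes, spz6 (CG9196) and Lst (CG8317) on chromosome arm 2R and js (CG14880) on 3R, were taken from 11981 named genes on 18769 tested probe sets. Each is read by 1 probe set, and that of js is of a kind whose probes can match several transcripts. They were chosen by measured values of these arrays: levels higher with Ubx than with eGFP in pupal wings at 29 °C, and a difference there larger than at 19 °C. Both pupal comparisons are therefore given for them as descriptions, without a test.

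Groups were wings of the Ubx line, with 1 copy of UAS-UbxIa, and of the eGFP control line, with 1 copy of UAS-eGFP. Both lines were w and carried nabGal4NP3537 over Tub-Gal80ts, so the transgene acted only where the driver inserted in nab is active. Under temperature-sensitive Gal80 the transgene was off at 19 °C, and it was on after 16 h at 29 °C. Tissue came from larvae at the wandering stage of the last instar, picked by the colour of the gut, from prepupae (6 h after puparium formation at 29 °C, 12.5 h at 19 °C) and from early pupae (16 h at 29 °C, 33.5 h at 19 °C). Every combination of line, stage and temperature had 4 biological replicates, each a pool of about 15 to 20 animals, which makes 48 arrays.

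The product of spz6 belongs to the Spätzle family of secreted cystine-knot ligands. The founding member, Spz, is cut by extracellular proteases and then binds the receptor Toll, in embryonic patterning and in immunity. Lst encodes limostatin, a peptide hormone that in the adult fly is made by endocrine cells of the corpora cardiaca, restrains insulin release and acts through the receptor PK1-R. The gene js encodes a protein with a chitin-binding domain; chitin is the polysaccharide of the cuticle that the wing epithelium secretes on its apical side. Ubx is the Hox gene that gives the hind appendage of flies the form of a haltere in place of a wing.

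Values are log2 expression levels, and differences are Ubx minus eGFP on that scale unless stated, each with its standard error from the model (SE) and n = 4 per line. A difference was called when limma's Benjamini-Hochberg adjusted p over all tested probe sets was under 0.05. Array medians lay between 4.19 and 4.78, and replicate arrays correlated at 0.995 to 0.9987 across probe sets. The labelled tissue was checked on 7 wing genes: vg, nub, ap, rn, bs and nab stood more than 0.5 above the array medians in 12 of 12 groups, and zfh2 in 8. Ubx itself was not analysed here, while nab, in which the driver sits, rose in the Ubx line at 29 °C by 0.71 in larvae, 1.72 in prepupae and 0.93 in pupae. The other wing genes that were called at 29 °C were lower with Ubx, 2 in larvae, 4 in prepupae and 5 in pupae. In larvae nub was not called with its probe sets averaged (adjusted p = 0.491). In prepupae the calls of vg (-0.15) and rn (-0.24) were lost in 9 and 8 of 14 alternatives, listed below. Those of ap and nub were lost there in 2 and 1. In pupae bs fell by 0.64, rn by 0.39, vg by 0.37, nub by 0.36 and ap by 0.25. The pupal call of ap was lost with pupal arrays alone (adjusted p = 0.0821). Over all genes 1.67 percent were called lower in larvae, 7.31 percent in prepupae and 5.84 percent in pupae.

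In pupal wings at 29 °C, spz6 read 8.81, 8.89, 8.97 and 9.04 on the Ubx arrays, against 6.32, 6.19, 6.00 and 6.22 on the eGFP arrays. All of the Ubx arrays were above all of the eGFP arrays, by 2.75 on average (SE 0.13), a 6.71-fold difference. Lst read 7.35, 7.16, 7.32 and 7.44 with Ubx, against 5.15, 5.66, 5.16 and 5.32 with eGFP. The difference was 1.99 (SE 0.12), or 3.97-fold, again without overlap. The gene js read 7.68, 7.92, 7.69 and 7.91 with Ubx, against 5.14, 5.26, 5.36 and 5.27 with eGFP. It differed by 2.54 (SE 0.08), or 5.83-fold, also without overlap. In that comparison 8.89 percent of all tested probe sets were called. Since the RNA came from whole wings, a difference in the number of cells of a type and one in RNA per cell cannot be told apart.

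With the transgene off, the pupal lines lay much closer together. At 19 °C spz6 read 6.36, 6.45, 6.11 and 6.53 in the Ubx line, against 5.91, 5.74, 5.88 and 5.83 in the eGFP line, a difference of 0.52 without overlap. Lst read 4.90, 4.83, 5.07 and 4.94 in the Ubx line, against 4.74, 4.31, 4.69 and 4.36 in the eGFP line. That difference was 0.41, and the groups did not overlap. The signal of Lst was low there. Its eGFP mean, 4.53, exceeded the largest median of those arrays, 4.25, by 0.28, short of a margin of 0.5. Its Ubx mean, 4.93, exceeded that median by 0.69. For js the lines overlapped, with 5.18, 5.12, 5.10 and 4.98 in the Ubx line, against 5.02, 5.12, 5.10 and 5.19 in the eGFP line, and the difference was -0.01. The line difference at 29 °C minus that at 19 °C was 2.22 for spz6, 1.58 for Lst and 2.56 for js. How far the low signal of Lst at 19 °C affects its values of 0.41 and 1.58 was not tested. At 19 °C 1.99 percent of probe sets were called, and in the pupal interaction 3.36 percent.

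**Figure D1:**
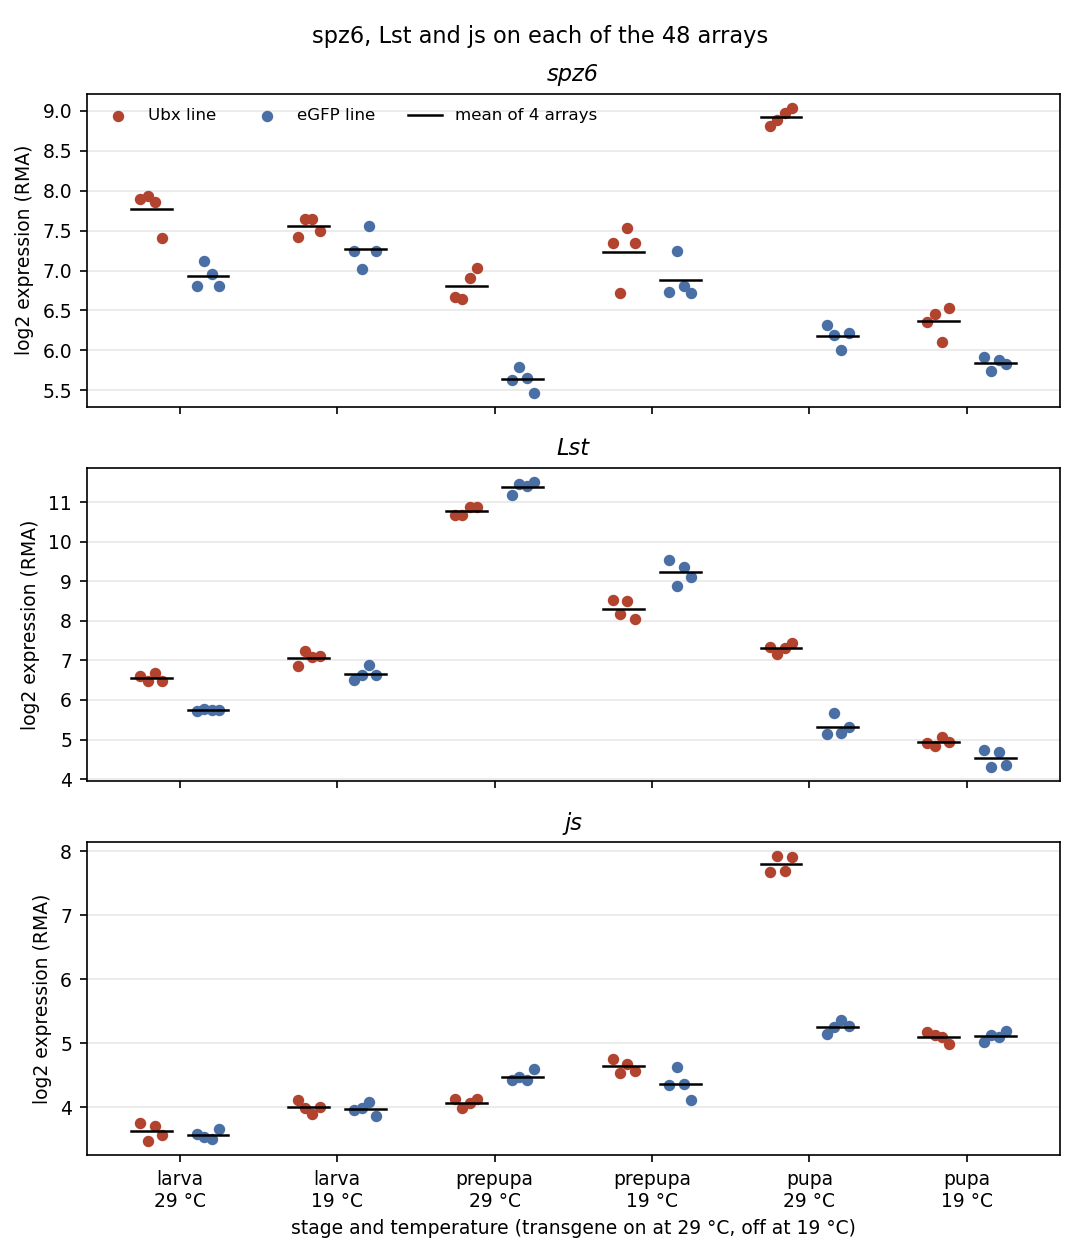
Log2 expression (vertical axis) of spz6, Lst and js on each of the 48 arrays, by stage and temperature (horizontal axis), with the Ubx line in red left of the eGFP line in blue and a bar at the mean of 4 arrays. In pupae at 29 °C the Ubx arrays of spz6 lie between 8.81 and 9.04 and the eGFP arrays between 6.00 and 6.32, while Lst is highest in prepupae at 29 °C.

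Among the 189 genes called higher in pupae at 29 °C and in the pupal interaction, ranked by the size of the pupal difference, spz6 had rank 4, js rank 5 and Lst rank 7. CG4000 (5.66), the cuticle protein gene Cpr49Ae (5.13) and CG10019 (3.08) stood above them. Cpr50Cb (2.45) lay between js and Lst, and CG14191 (1.83) came just below Lst. The values ranked here are those that chose spz6, js and Lst, so their high ranks follow from the choice and lend it no support.

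The larval and prepupal arrays played no part in the choice, and there the calls of the 3 genes differed. At 29 °C spz6 rose with Ubx at both earlier stages. Lst rose in larvae and fell in prepupae, and js was not called in larvae and fell in prepupae. So 2 of the 3 genes were called in larvae, where 2.77 percent of probe sets were called, and all 3 in prepupae, where 14.2 percent were called.

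In larval wing discs at 29 °C spz6 read 7.90, 7.93, 7.86 and 7.41 with Ubx, against 6.81, 7.12, 6.96 and 6.81 with eGFP. The lowest Ubx disc sample was still above the highest eGFP sample, and spz6 rose by 0.85 (SE 0.13, adjusted p = 1.26e-05). In prepupal wings it read 6.67, 6.64, 6.90 and 7.03 with Ubx, against 5.63, 5.79, 5.65 and 5.47 with eGFP. The groups did not overlap, and the rise was 1.18 (SE 0.13, adjusted p = 3.23e-09), or 2.26-fold.

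At 19 °C spz6 was not called at either stage. In larvae it read 7.42, 7.65, 7.65 and 7.49 in the Ubx line, against 7.24, 7.02, 7.56 and 7.25 in the eGFP line, with a difference of 0.29 (adjusted p = 0.598). In prepupae it read 7.34, 6.72, 7.53 and 7.35 in the Ubx line, against 6.73, 7.25, 6.80 and 6.72 in the eGFP line. The lines overlapped, with the second Ubx replicate the lowest of its line and the second eGFP replicate the highest of its line, and the difference was 0.36 (adjusted p = 0.151). Without the second Ubx replicate it was 0.53 (adjusted p = 0.00707), and without the second eGFP replicate 0.48 (adjusted p = 0.0256). Called shares at 19 °C were 1.41 percent of probe sets in larvae and 3.67 percent in prepupae.

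The test of the interaction set the line difference of spz6 at 29 °C against that at 19 °C. It was 0.82 in prepupae (SE 0.19, adjusted p = 0.00246), where 7.69 percent of probe sets were called. In larvae it was 0.56 (SE 0.19, adjusted p = 0.346) and not called, with 0.442 percent of probe sets called. All 6 line differences of spz6 were above 0, and in 4 of them the lines did not overlap. The pupal differences at 29 °C and 19 °C, which chose the gene, are among those 4. From larva to prepupa the line difference at 29 °C changed by 0.32 (SE 0.19, adjusted p = 0.391).

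Lst had line differences of opposite sign at the earlier stages. In larval discs at 29 °C it read 6.60, 6.49, 6.68 and 6.49 with Ubx, against 5.72, 5.76, 5.74 and 5.75 with eGFP. Lst rose by 0.82 (SE 0.12, adjusted p = 3.11e-06), or 1.77-fold, and the groups did not overlap. In prepupal wings at 29 °C it read 10.68, 10.67, 10.89 and 10.87 with Ubx, against 11.17, 11.45, 11.42 and 11.51 with eGFP. There it fell by 0.61 (SE 0.12, adjusted p = 0.000155), again without overlap.

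The prepupal fall of Lst was also present with the transgene off. At 19 °C it read 8.52, 8.18, 8.49 and 8.04 in Ubx prepupae, against 9.54, 8.88, 9.37 and 9.10 in eGFP prepupae. The Ubx arrays were all lower, by 0.91 (SE 0.12, adjusted p = 3.9e-07). The prepupal interaction, at 0.30 (SE 0.17, adjusted p = 0.343), was not called. In larvae at 19 °C Lst read 6.85, 7.23, 7.08 and 7.11 in the Ubx line, against 6.50, 6.62, 6.88 and 6.64 in the eGFP line. The lines overlapped by 1 array each, and the difference of 0.41 (adjusted p = 0.0777) was not called. It was called when larval arrays were fitted alone (adjusted p = 0.011), without the first Ubx replicate (0.48, adjusted p = 0.0372) and without the third eGFP replicate (0.48, adjusted p = 0.037). The larval interaction was 0.41 (SE 0.17, adjusted p = 0.629).

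The turn in sign of Lst between stages was tested directly, as the line difference in prepupae minus that in larvae. It was -1.44 at 29 °C (SE 0.17, adjusted p = 2.61e-08), where 6.31 percent of probe sets were called. At 19 °C it was -1.32 (SE 0.17, adjusted p = 1.08e-06), where 0.757 percent were called. Of the 6 line differences of Lst 4 were above 0, and in 5 the lines did not overlap. Each of these counts includes the pupal differences at 29 °C and 19 °C, which chose the gene.

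For js the earlier values were low. Its mean in every larval and prepupal group lay below the highest array median of its set, by 0.03 to 0.93, so it was not shown to be above background there. In larval discs at 29 °C js read 3.75, 3.47, 3.70 and 3.56 with Ubx, against 3.58, 3.53, 3.51 and 3.66 with eGFP, and the difference was 0.05 (SE 0.08, adjusted p = 0.918). At 19 °C it read 4.11, 3.99, 3.89 and 4.00 in Ubx larvae, against 3.95, 3.98, 4.08 and 3.86 in eGFP larvae, with a difference of 0.03 (adjusted p = 1.0). The lines overlapped at both temperatures.

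In prepupal wings at 29 °C js read 4.12, 3.98, 4.06 and 4.13 with Ubx, against 4.42, 4.47, 4.42 and 4.59 with eGFP. All of the Ubx arrays were lower, and js fell by 0.40 (SE 0.08, adjusted p = 0.000111). At 19 °C it read 4.76, 4.54, 4.68 and 4.57 in Ubx prepupae, against 4.34, 4.63, 4.36 and 4.11 in eGFP prepupae. The lines overlapped, and the difference of 0.27 (SE 0.08) was called (adjusted p = 0.0279), but not with prepupal arrays alone (adjusted p = 0.12). Leaving out 1 array ended that call for Ubx replicates 1 and 3 and for eGFP replicates 1, 3 and 4, with adjusted p-values of 0.12, 0.0827, 0.0764, 0.0626 and 0.236 in that order. The prepupal interaction of js was -0.68 (SE 0.11, adjusted p = 1.62e-05). Its line difference at 29 °C changed by -0.45 from larva to prepupa (SE 0.11, adjusted p = 0.00463). Of its 6 line differences 4 were above 0 and 2 were without overlap. Each of these counts includes the pupal difference at 29 °C, which helped to choose the gene.

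**Figure D2:**
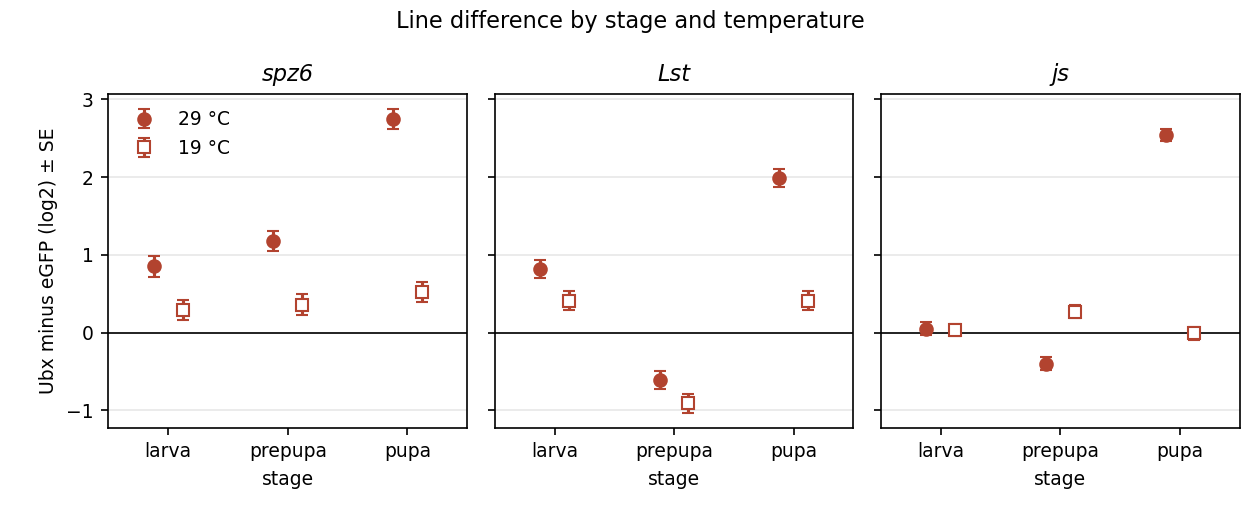
Ubx minus eGFP on the log2 scale (vertical axis) for spz6, Lst and js by stage (horizontal axis), at 29 °C (filled circles, transgene on) and 19 °C (open squares, transgene off), with bars of 1 SE on either side. At 29 °C the difference of spz6 is 0.85 in larvae, 1.18 in prepupae and 2.75 in pupae, while that of Lst is 0.82, -0.61 and 1.99 and that of js 0.05, -0.40 and 2.54.

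In the eGFP line, Lst had the largest stage differences of the 3 genes. Its prepupal mean was 5.65 above its larval mean at 29 °C (SE 0.12, adjusted p = 6.08e-36), a 50.1-fold difference, and 2.56 above it at 19 °C (SE 0.12, adjusted p = 2.1e-23). In the same line js was 0.91 higher in prepupae than in larvae at 29 °C (adjusted p = 2.31e-14) and 0.39 higher at 19 °C (adjusted p = 1.34e-05). For spz6 the prepupal mean was lower than the larval one, with differences of -1.29 at 29 °C (adjusted p = 6.64e-12) and -0.39 at 19 °C (adjusted p = 0.00725). The difference of spz6 at 19 °C turned to 0.64 (adjusted p = 4.36e-05) when all arrays were quantile normalised together. Such comparisons called 72.3 percent of probe sets at 29 °C and 75.7 percent at 19 °C, so a call in them does not set a gene apart. Each stage and temperature appears to have been normalised as a set of its own, and over all named genes the median prepupal minus larval difference was -0.08 at 29 °C and -0.33 at 19 °C. Stage, temperature and set cannot be told apart.

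Between 29 °C and 19 °C in eGFP prepupae Lst was higher by 2.17 (SE 0.12, adjusted p = 7.99e-20) and spz6 lower, with a difference of -1.24 (SE 0.13, adjusted p = 4.85e-11), while js differed by 0.11 (adjusted p = 0.211). The temperatures also differ in age after puparium formation. In eGFP larvae all 3 genes were lower at 29 °C than at 19 °C, with differences of -0.92 for Lst (adjusted p = 2.45e-08), -0.40 for js (adjusted p = 2.47e-05) and -0.34 for spz6 (adjusted p = 0.0218). The calls of spz6 (-0.14, adjusted p = 0.442) and js (-0.19, adjusted p = 0.0515) were lost when all arrays were quantile normalised together. The call of spz6 was also lost without the third eGFP replicate at 19 °C (adjusted p = 0.119) and without the first or the fourth at 29 °C (adjusted p = 0.0628 and 0.061). Of all probe sets 63.9 percent were called between the temperatures in larvae and 55.7 percent in prepupae, and the medians over named genes were -0.20 and 0.11.

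Ordered by group mean, spz6 was highest in Ubx pupae at 29 °C (8.93) and lowest in eGFP prepupae at 29 °C (5.63), a range of 3.30. The order of the 12 groups was not sharp, since 8 of 11 neighbouring pairs overlapped. Lst spanned 6.86, with eGFP prepupae at 29 °C at the top (11.39), Ubx prepupae at 29 °C next (10.78) and eGFP pupae at 19 °C at the bottom (4.53). Its 4 prepupal groups held the top 4 places without overlap between neighbours, and 3 of its 11 neighbouring pairs overlapped. For js Ubx pupae at 29 °C (7.80) stood alone, with 5.26, 5.11 and 5.10 in the other pupal groups, which overlapped. Its lowest group was eGFP larvae at 29 °C (3.57), its range was 4.23, and 8 of its 11 neighbouring pairs overlapped.

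Over the 12 group means, Pearson correlations were -0.03 for spz6 and Lst, 0.34 for spz6 and js and -0.13 for Lst and js, where js and spz6 share the high value in Ubx pupae at 29 °C. The genes most like each of them were sought among 7238 genes with a range of group means of at least 1, by correlation over the same 12 means. For spz6 these were GEFmeso (0.822), 18SrRNA-Psi:CR41602 (0.777), Mthfs (0.772), Cpr92F (0.756) and CG10019 (0.739). Of these CG10019 had line differences at 29 °C of 0.78 in larvae, 1.45 in prepupae and 3.08 in pupae. Those of 18SrRNA-Psi:CR41602 were 0.60, 0.22 and 0.84 in the same order, and 0.48 in pupae at 19 °C. For Lst smash (0.972) and whd (0.967) were among the 5 genes most alike, with pupal differences of 0.30 and 0.40. For js they were CG5321 (0.98), the cuticle protein gene Cpr49Ae (0.954), CG13054 (0.954), CG4000 (0.953) and the cuticle protein gene Cpr62Bc (0.937). Their pupal differences at 29 °C were 1.07, 5.13, 1.03, 5.66 and 0.72 in that order. The high mean of js in Ubx pupae at 29 °C, which helped to choose it, enters these correlations. The arrays of a set share their normalisation, and these correlations are descriptions only.

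Of the other ligands of the Spätzle family none rose in prepupae or pupae at 29 °C: 2 of the 5 measured fell in each of these stages, and 1 rose in larvae. Read by 1 probe set per gene, 3.31 percent of all genes were called in larvae (1.64 percent higher, 1.67 percent lower), 17.3 percent in prepupae (10.0 percent higher, 7.31 percent lower) and 11.2 percent in pupae (5.39 percent higher, 5.84 percent lower). NT1, which encodes a neurotrophin-like member of the family, fell in pupae by 0.91 (5.99 with Ubx and 6.90 with eGFP, SE 0.15, adjusted p = 1.37e-05) and in prepupae by 1.04 (adjusted p = 7.09e-07). Its other probe set was called at both stages, at -0.80 and -0.65. In pupae spz3 fell by 0.32 (adjusted p = 0.019), a call lost with pupal arrays alone (adjusted p = 0.0793) and without the second eGFP replicate (adjusted p = 0.0876). In prepupae spz5 fell by 0.61 (adjusted p = 1.26e-05). In larvae spz, named here after its value was seen, rose by 0.30 (adjusted p = 0.00251, but 0.0587 with larval arrays alone). The ligands had median differences of 0.16 in larvae, -0.14 in prepupae and -0.02 in pupae, against medians over all genes within 0.01 of 0.

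Of the 7 measured Toll family receptors 3 rose in pupae at 29 °C and none fell. The shares of all genes called higher and lower were 5.39 and 5.84 percent in pupae, and 10.0 and 7.31 percent in prepupae. Tl, the receptor of Spz, rose by 0.85 (10.81 with Ubx and 9.96 with eGFP, SE 0.06, adjusted p = 8.37e-16), against a difference of 0.09 at 19 °C, and its pupal interaction was 0.76 (adjusted p = 2.04e-09). Toll-7 rose by 0.51 (adjusted p = 0.00489). Tehao rose by 0.24 (adjusted p = 0.0304) at a level under the array medians, and the call was lost in 7 of 13 alternatives. In prepupae Tl rose by 0.41 (adjusted p = 3.44e-07; 0.26 and adjusted p = 0.057 on its other probe set) and Tollo fell by 0.29 (adjusted p = 0.000563). No receptor was called in larvae, where limma gave 1 an unadjusted p under 0.05. The receptors' median differences were 0.03 in larvae, -0.06 in prepupae and 0.16 in pupae.

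Among 13 measured genes for the extracellular proteases, serpins and modifiers that act on Spz, 3 rose and 2 fell in pupae, 3 rose in prepupae, and 1 rose and 1 fell in larvae. Among all genes 5.39 percent were called higher and 5.84 percent lower in pupae. These shares were 10.0 and 7.31 percent in prepupae and 1.64 and 1.67 percent in larvae. SPE, the Spätzle-processing enzyme, rose in pupae by 0.59 (7.69 with Ubx and 7.10 with eGFP, adjusted p = 2.05e-05). The protease gene grass rose by 0.53 (adjusted p = 0.00293), and psh, also a protease gene, fell by 0.38 (adjusted p = 1.71e-06). The sulfotransferase gene pip fell by 0.70 (adjusted p = 1.59e-07) on its brightest probe set only. The Spz-cleaving protease gene ea rose in prepupae by 0.35 (adjusted p = 0.0028) and in pupae by 0.34 (adjusted p = 0.00606, but 0.0577 without the fourth Ubx replicate). The serpin gene Spn27A rose in prepupae by 0.38 (adjusted p = 1.9e-07), and Hayan by 0.30 (adjusted p = 0.0271), a call lost in 6 of 14 alternatives. In larvae Spn27A rose by 0.21 (adjusted p = 0.00692, but 0.0726 without the second Ubx replicate) and pip fell by 0.40 (adjusted p = 0.00472), both named for this stage after their values were seen. Median differences were 0.04, 0.00 and 0.02 in larvae, prepupae and pupae.

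Inside the cell, 9 measured genes of Toll signalling gave 1 fall in pupae, 3 rises in prepupae and no call in larvae, where limma gave 2 genes an unadjusted p under 0.05. For all genes the called shares were 5.84 percent lower in pupae and 10.0 percent higher in prepupae. The transcription factor gene dl fell in pupae by 0.27 (adjusted p = 0.00711), with its other probe set at -0.40 and not called (adjusted p = 0.222). In larvae that other probe set was called at -0.86 (adjusted p = 0.0035), while the brighter one, at -0.23, was not (adjusted p = 0.0744). In prepupae the adaptor gene Myd88 rose by 0.23 (adjusted p = 0.0009) and the kinase gene pll by 0.21 (adjusted p = 0.0155). Pli, the Pellino gene, rose by 0.21 (adjusted p = 0.0249). The calls of pll and Pli were lost in 4 and 5 of 14 alternatives. Median differences were 0.05, 0.10 and 0.01 in the order of the stages.

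**Figure D3:**
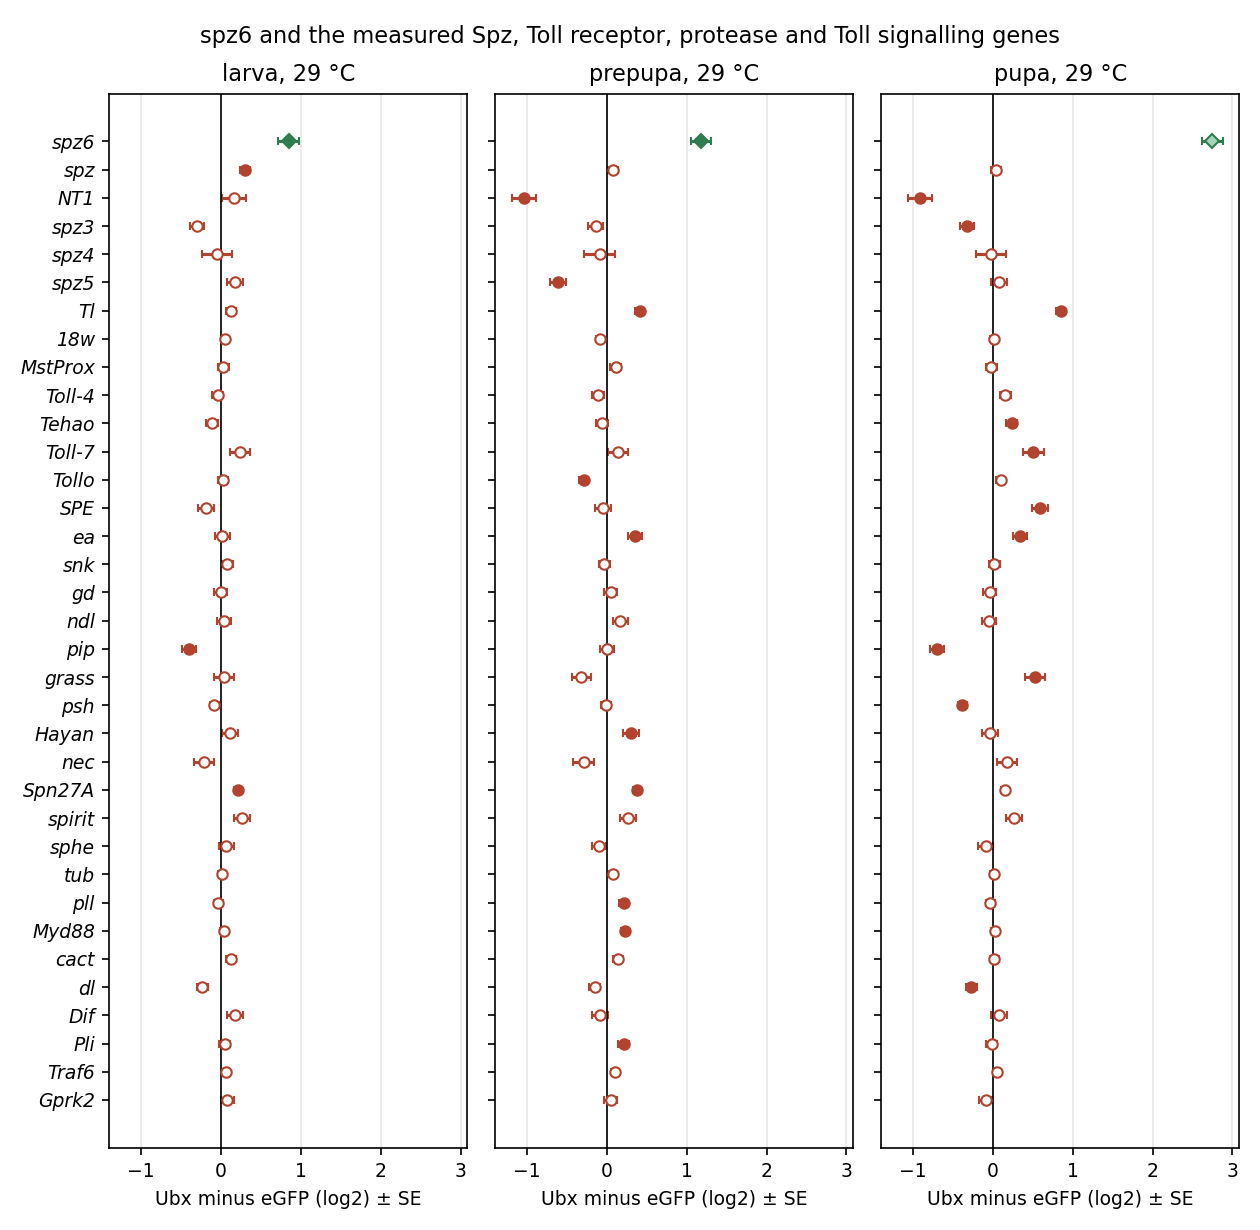
Ubx minus eGFP on the log2 scale at 29 °C (horizontal axis) for spz6 (diamonds) and the measured Spätzle ligand, Toll receptor, protease and Toll signalling genes (circles) in larvae, prepupae and pupae, with bars of 1 SE on either side. Filled symbols passed the test, open ones did not, and the light pupal diamond was not tested. The values of spz6 are 0.85, 1.18 and 2.75, of which the pupal one helped to choose it. In pupae Tl lies at 0.85 and NT1 at -0.91.

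Around Lst, 14 genes of the limostatin and insulin pathway were measured, of which 2 rose in pupae at 29 °C and 4 fell in prepupae. None was called in larvae, where limma gave 3 an unadjusted p under 0.05. Over all genes 5.39 percent rose in pupae and 7.31 percent fell in prepupae. Sdr, which encodes a secreted decoy of the insulin receptor, fell like Lst in prepupae at 29 °C. The pupal rise of Lst helped to choose it, so its pupal direction was not compared with that of Sdr. Sdr rose in pupae by 0.78 (7.93 with Ubx and 7.16 with eGFP, SE 0.10, adjusted p = 5.35e-08). In prepupae it fell by 0.98 (7.12 with Ubx and 8.10 with eGFP, SE 0.10, adjusted p = 9.94e-11). At 19 °C its differences were 0.02 in pupae and -0.05 in prepupae, where Lst differed by 0.41 and -0.91. ImpL2, a secreted insulin-binding protein, fell in prepupae by 0.63 (9.04 with Ubx and 9.67 with eGFP, adjusted p = 1.4e-07). In pupae it rose by 0.27 (adjusted p = 0.0337), a call lost in 7 of 14 alternatives. In prepupae Pdk1, a kinase of the insulin pathway, fell by 0.30 (adjusted p = 0.00493, but 0.0529 with prepupal arrays alone), and the transcription factor gene foxo by 0.39 (adjusted p = 0.00755).

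PK1-R, the receptor gene of limostatin, was near or under the array medians, with group means from 3.91 to 4.39 at any stage and temperature. Its differences at 29 °C were -0.01 in larvae, -0.12 in prepupae (adjusted p = 0.271) and 0.13 in pupae (adjusted p = 0.261). The insulin receptor gene InR differed by -0.20 in pupae (adjusted p = 0.435). Medians over the 14 genes were -0.05 in larvae, -0.05 in prepupae and 0.06 in pupae. Akh and gl, the 2 measured of 3 listed corpora cardiaca markers, stood more than 0.5 above the array medians in 0 of 12 groups.

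**Figure D4:**
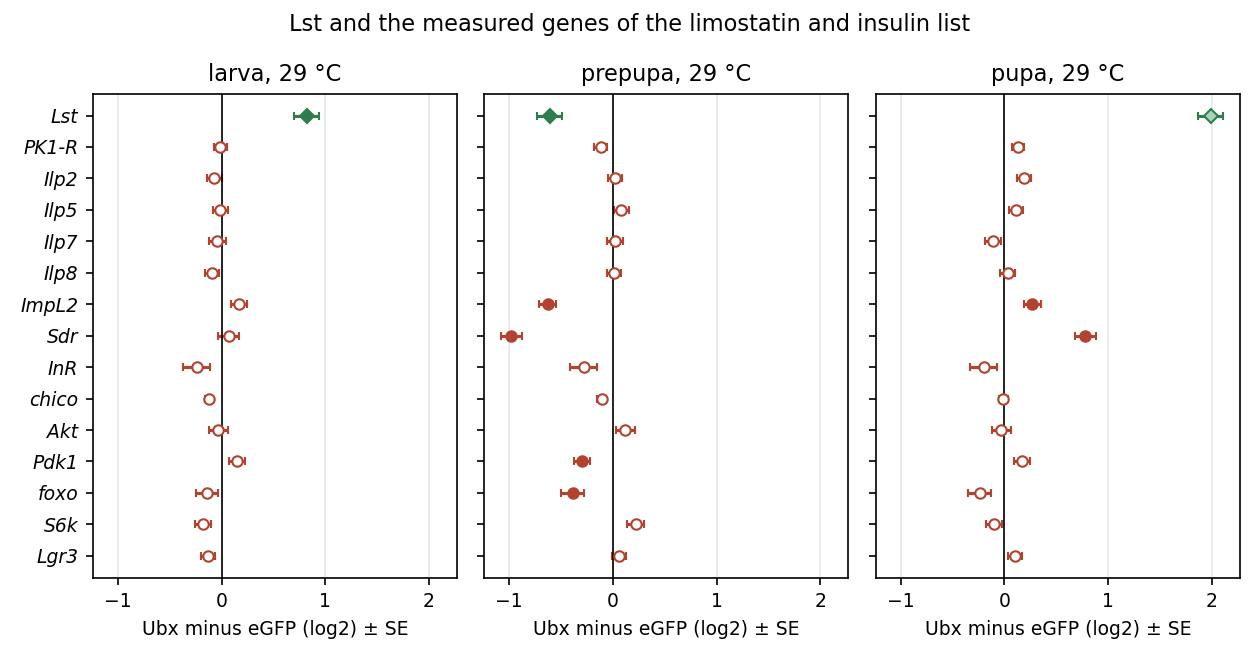
Ubx minus eGFP on the log2 scale at 29 °C (horizontal axis) for Lst (diamonds) and the measured genes of the limostatin and insulin list (circles) in larvae, prepupae and pupae, with bars of 1 SE on either side. Filled symbols passed the test, open ones did not, and the light pupal diamond was not tested. In prepupae Lst and Sdr both lie below 0 (-0.61 and -0.98). In pupae Sdr lies at 0.78, and Lst at 1.99, a value that helped to choose it.

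Around js, 21 genes of the apical matrix and of chitin synthesis and modification were measured. In pupae at 29 °C 4 rose and 8 fell, against 5.39 and 5.84 percent of all genes called higher and lower. The rise of js in that comparison helped to choose it, so its direction was not compared with theirs. The chitin deacetylase genes serp and verm fell by 1.24 (7.34 with Ubx and 8.58 with eGFP, SE 0.09, adjusted p = 1.13e-14) and 0.95 (adjusted p = 2.17e-12). Gasp, which encodes a chitin-binding protein, fell by 0.88 (8.98 with Ubx and 9.85 with eGFP, adjusted p = 8.86e-07). The chitin deposition gene reb rose by 0.65 (adjusted p = 0.0297), a call lost in 6 of 14 alternatives. The other rises, named after their values were seen, were those of Cda4, a further chitin deacetylase gene, by 0.54 (adjusted p = 7.77e-06), mey, for a zona pellucida domain protein, by 0.48 (adjusted p = 0.00165), and exp by 0.29 (adjusted p = 0.0264, lost in 6 of 14 alternatives).

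In prepupae 2 of the 21 rose and 2 fell, against 10.0 and 7.31 percent of all genes called higher and lower. The chitinase gene Cht5 rose by 1.15 (adjusted p = 1.41e-05) and Cda4 by 0.28 (adjusted p = 0.0177, but 0.0505 without the fourth Ubx replicate and 0.0545 without the first eGFP replicate). The zona pellucida domain genes dy and qsm fell by 0.64 each (adjusted p = 3.33e-05 and 2.21e-15). In pupae dy fell by 0.55 (adjusted p = 0.000551) and qsm by 0.17 (adjusted p = 0.00536). In larvae 1 gene was called: knk, named after its value was seen, rose by 0.16 (adjusted p = 0.00773, but 0.0742 without the first Ubx replicate). Of all genes 1.64 percent were called higher there. Median differences were 0.00, 0.02 and -0.07 in larvae, prepupae and pupae.

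**Figure D5:**
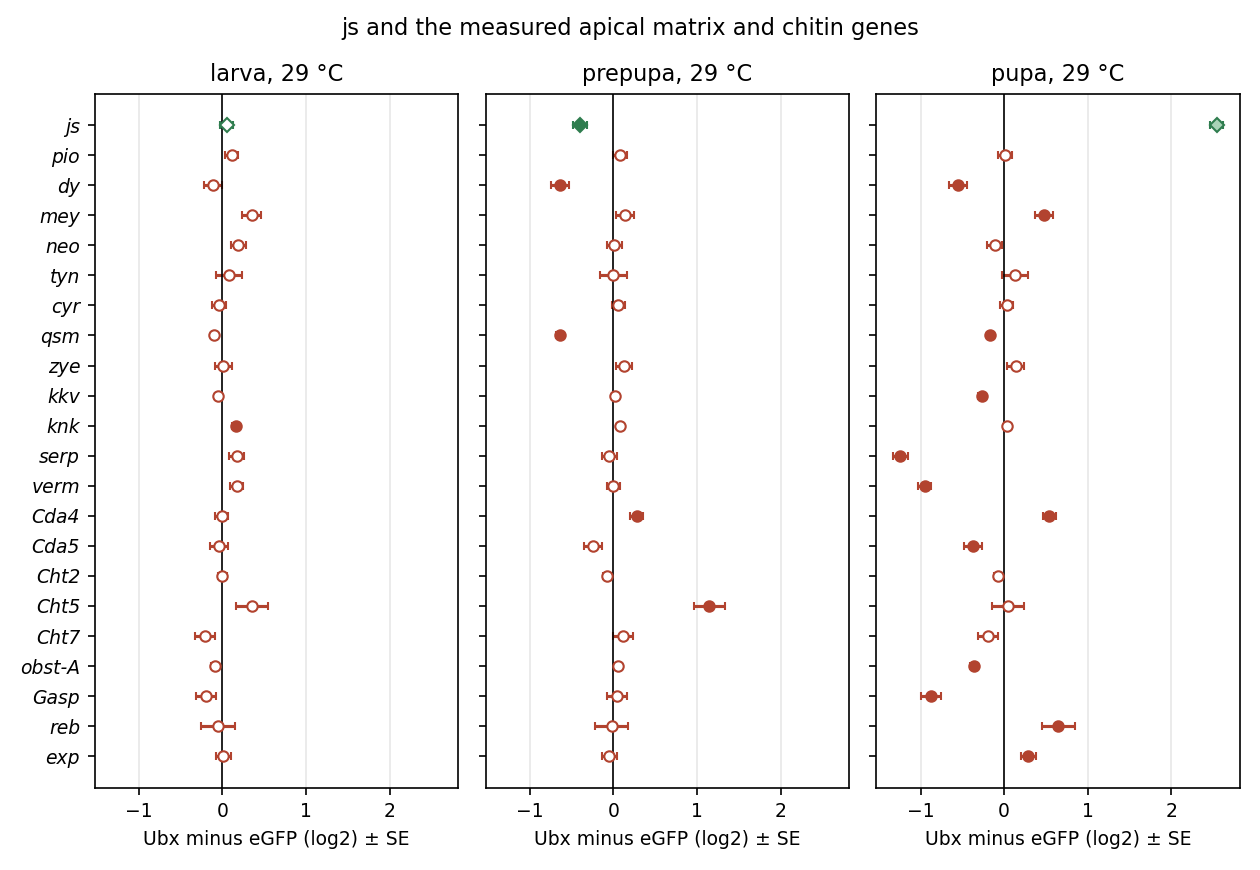
Ubx minus eGFP on the log2 scale at 29 °C (horizontal axis) for js (diamonds) and the measured apical matrix and chitin genes (circles) in larvae, prepupae and pupae, with bars of 1 SE on either side. Filled symbols passed the test, open ones did not, and the light pupal diamond was not tested. In pupae 4 of the 21 genes rose and 8 fell. Among them serp, verm and Gasp lie at -1.24, -0.95 and -0.88, and reb, Cda4, mey and exp at 0.65, 0.54, 0.48 and 0.29. The pupal value of js, 2.54, helped to choose it.

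Markers of the wing and of other cell types were read as summed linear levels per array. Over all genes 5.39 percent were called higher and 5.84 percent lower in pupae at 29 °C. In prepupae at 29 °C these shares were 10.0 and 7.31 percent. At 29 °C the 7 wing markers summed to 4994 to 5551 with Ubx, against 5649 to 6020 with eGFP, in larvae, without overlap. In prepupae the sums were 3079 to 3556 with Ubx, against 3414 to 3877 with eGFP, and overlapped. In pupae they were 5730 to 6116 with Ubx, against 6130 to 7164 with eGFP, without overlap. In pupae at 29 °C the 11 haemocyte markers summed to 1029 to 1210 with Ubx, against 853 to 1050 with eGFP. Of the 11 genes 1 rose. That gene, NimC1, named after its value was seen, differed by 0.91, and by 0.89 with the transgene off. The 7 tracheal markers, Gasp among them, summed to 1307 to 1506 with Ubx, against 1908 to 2330 with eGFP, with 2 rises and 2 falls among the 7 genes. The 4 fat body markers summed to 10722 to 19210 with Ubx, against 10495 to 17299 with eGFP, and 1 of 4 fell. That gene, Fbp2, named after its value was seen, differed by -4.52, and by -3.78 with the transgene off. For the 8 muscle markers the ranges were 728 to 824 with Ubx and 691 to 820 with eGFP, with 1 rise, and for the 9 neuron and glia markers 1054 to 1219 and 1112 to 1216, with 1 rise. Both measured corpora cardiaca markers summed to 34 to 43 with Ubx and 34 to 43 with eGFP, with no call.

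In prepupae at 29 °C haemocyte markers did not overlap between lines (1992 to 2234 with Ubx, 1695 to 1802 with eGFP, 2 of 11 up). Muscle markers did not either (886 to 966 with Ubx, 527 to 562 with eGFP, 3 of 8 up). With the transgene off, haemocyte markers again did not overlap in prepupae (1816 to 2121 in the Ubx line, 1632 to 1740 in the eGFP line). Muscle markers did overlap there (496 to 652 and 495 to 639). In larvae at 29 °C fat body markers ranged from 123 to 363 with Ubx and from 135 to 6328 with eGFP, and tracheal markers from 2298 to 2431 with Ubx and from 2586 to 2712 with eGFP. The part of wing and other cells in the values of spz6, Lst and js was not tested.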

How the data were processed

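Total RNA of 48 pooled wing samples was hybridised to Affymetrix Drosophila Genome arrays. The deposited log2 values were made by the authors with RMA, per the submitters' processing notes. Neither the version of RMA nor the base is given in the sources used here; the range, 2.37 to 14.58, was taken as base 2. Quantiles differed by at most 0.136 within the 8 arrays of a stage and temperature and by at least 0.249 between sets. Of 18952 probe sets 183 controls were left out. Names came from the supplied annotation: 13646 tested probe sets had 1 symbol, 402 several and 4721 none. Arms and neighbours came from RefSeq (Release 6 assembly).

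Group means were fitted over all arrays with limma 3.58.1 in R 4.3.3 (lmFit and eBayes, 36 residual and 5.16 prior degrees of freedom, two-sided, Benjamini-Hochberg). Genes of lists were read by the probe set with the highest mean. Simulated data were used to test the fit. Tables were made with pandas 2.3.3 and numpy 2.4.6 in Python 3.11.15, and plots with matplotlib 3.10.9. The number of arrays limits the precision.

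The members and lists were chosen with earlier results of these data known, and the stage contrasts of the line difference were added after values were seen. Named genes were up to 4 called list members with the largest difference in pupae and in prepupae, the 5 genes most like each member and 3 measured neighbours on each side; some with a CG number alone were left unnamed, and exceptions are marked. Alternatives were quantile normalisation over all arrays, centring on array medians, an intensity trend, a filter on dim probe sets (highest group mean above 4.55, 11430 kept), the arrays of a stage alone, a replicate block, averaging the probe sets of each gene, and each array left out. The margin of 0.5 over array medians was set after values were seen.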

Additional observations from a re-analysis of the deposited data

Results flagged for a closer look

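Of 36 groups of 4 arrays (3 genes in 12 groups), 2 held an array far from the other 3, judged by its gap to the nearest array over the range of the group, with chance giving about 1 in 20 such groups. Both concern spz6. Among Ubx larvae at 29 °C the lowest array, 7.41, was that of the fourth replicate, and without it the larval rise was 0.97 (adjusted p = 1.83e-06) and the larval interaction 0.69 (adjusted p = 0.0756). Among eGFP prepupae at 19 °C the highest array, 7.25, was that of the second replicate. Without it the difference at 19 °C was 0.48 (adjusted p = 0.0256) and the prepupal interaction 0.69 (adjusted p = 0.00999).

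In 5 cases the line difference itself differed between temperatures or stages by limma's test. Between 29 °C and 19 °C in prepupae it differed for spz6 by 0.82 (adjusted p = 0.00246) and for js by -0.68 (adjusted p = 1.62e-05). Between prepupae and larvae it differed for Lst by -1.44 at 29 °C (adjusted p = 2.61e-08) and by -1.32 at 19 °C (adjusted p = 1.08e-06), and for js by -0.45 at 29 °C (adjusted p = 0.00463).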

How the results depend on the processing

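The larval and prepupal line differences at 29 °C kept their direction and side of the threshold in all 14 alternatives each: spz6 0.71 to 0.97 and 1.10 to 1.44, Lst 0.61 to 0.85 and -0.68 to -0.55, js 0.01 to 0.10 and -0.42 to -0.34. So did Lst in prepupae at 19 °C (-1.03 to -0.77) and the prepupal interactions of spz6 (0.65 to 1.07) and js (-0.77 to -0.59) in 22. With all arrays quantile normalised together, the pupal difference of spz6 was 2.89, its larval to prepupal change of the line difference at 29 °C was called at 0.74, its prepupal minus larval difference in eGFP at 19 °C reversed to 0.64, and the larval temperature differences in eGFP were -0.14 for spz6 and -0.19 for js, both uncalled. Centring left that of spz6 at -0.15 (adjusted p = 0.395). With the arrays of the stage alone or the replicate block, Lst in larvae at 19 °C stayed at 0.41 and was called (adjusted p = 0.011 and 0.0164), and js in prepupae at 19 °C stayed at 0.27 and was not (adjusted p = 0.12 and 0.0608). With 1 array left out, spz6 in prepupae at 19 °C ran from 0.26 to 0.53, Lst in larvae at 19 °C from 0.36 to 0.48, js in prepupae at 19 °C from 0.19 to 0.36, and in eGFP the temperature difference ran from -0.42 to -0.24 for spz6 in larvae and from 0.03 to 0.20 for js in prepupae (0.20 without the second replicate at 19 °C, adjusted p = 0.0201), and the prepupal minus larval difference of spz6 at 19 °C from -0.52 to -0.29 (adjusted p = 0.0537 without the third larval replicate). The causes were not tested.

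Over all probe sets, arrays of the stage alone gave 212 calls in pupae at 19 °C, 948 in the prepupal and 398 in the pupal interaction, against 374, 1443 and 630 with all arrays. The larval temperature comparison gave 11993 calls, but 5970 after quantile normalisation, 5637 after centring and 7051 without dim probe sets, where fewer were tested. The larval interaction gave 83 calls and 61 to 125 with 1 array left out, 125 without the second eGFP replicate at 19 °C. After centring, higher and lower calls were 516 and 1120 in pupae at 29 °C (818 and 851 as deposited), 1662 and 906 in prepupae (1507 and 1165) and 188 and 454 in the pupal interaction (271 and 359). With the probe sets of each gene averaged, 1 Toll signalling gene, against 0, and 1 Spz processing gene, against 2, were called in larvae.

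Same-numbered replicates correlated from -0.145 to 0.361 in their deviations, with 6 of 24 pairs over 0.1 and 6 highest with their own number. What same-numbered arrays share beyond the label was not tested further, and the main fit did not pair them. The replicate block changed no other call of these genes. No detection calls were used. Signals near the array medians limit what the values show for js before pupation, for PK1-R and for Lst in eGFP pupae at 19 °C.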

Other observations

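Other genes of neuroendocrine peptides and their processing, 14 of 19 measured, were compared with Lst at 29 °C. They gave 2 rises in pupae, 2 falls in prepupae and 1 rise in larvae. Over all genes 5.39 percent rose in pupae, 7.31 percent fell in prepupae and 1.64 percent rose in larvae. Phm, which encodes an enzyme of peptide amidation, differed by 0.23 in larvae (adjusted p = 0.00013), -0.30 in prepupae (adjusted p = 2.67e-07) and 0.20 in pupae (adjusted p = 0.0004). In larvae and prepupae these were the signs of Lst, whose pupal sign was set by the choice. The other probe set of Phm gave -0.07 in prepupae and was not called. With the transgene off, at 19 °C, Phm differed by 0.24 in larvae (adjusted p = 0.000162), 0.08 in prepupae (adjusted p = 0.45) and 0.31 in pupae (adjusted p = 1.37e-06). Its interaction was -0.01 in larvae (adjusted p = 1.0), -0.38 in prepupae (adjusted p = 8.93e-06) and -0.10 in pupae (adjusted p = 0.486). Burs, a subunit gene of the tanning hormone bursicon, fell in prepupae by 0.25 (adjusted p = 0.00127). Pal2, also a peptide amidation enzyme, rose in pupae by 0.29 (adjusted p = 0.0232), a call lost in 7 of 13 alternatives. Akh, the adipokinetic hormone gene, differed by -0.04 in pupae (adjusted p = 0.889).

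The genomic neighbours of the 3 genes were read as 3 measured genes on each side, 6 per gene. On the brightest probe set in pupae at 29 °C the neighbours of spz6 differed by -0.11 to 0.24, with none called. The other probe set of CG3880, next to spz6, was called at 0.32 (adjusted p = 0.000607). Those of js differed by -0.21 to 0.20, with none called. Over all genes 11.2 percent were called in that comparison. Around Lst they differed by -0.09 to 0.24, and 1 rose by 0.24 (adjusted p = 0.0436), a call lost in 9 of 14 alternatives. In prepupae at 29 °C 3 neighbours of spz6 were called, 2 higher and 1 lower, within -0.21 to 0.59, and none around Lst. Over all genes 17.3 percent were called there. The call of the lower gene, CG12848, was lost in 8 of 14 alternatives. The rise of CG3894 was not called with its probe sets averaged (adjusted p = 0.239). Within these 6 genes around js, Manf, which encodes a secreted trophic factor, fell in prepupae by 0.56 (adjusted p = 1.93e-11), and CG10311 fell by 0.97 (adjusted p = 7.63e-09) and, in larvae, by 1.28 (adjusted p = 1.59e-11).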
